A study of Mus musculus with 6 samples.

Results

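Transcribed places that carry no gene name and lie more than 10 kb from every named gene were followed in the adrenal glands of mice with and without Armc5. They were taken from a table of 59699 loci assembled by StringTie, of which 6596 have no gene name. A row was kept when its read counts summed to 60 or more over the 6 libraries and its nearest named row, on either strand, was more than 10 kb away. Of 739 unnamed rows at that distance, 441 had enough counts. Rows on the same strand within 20 kb of each other were joined, which gave 378 units, numbered here from 1 to 378 by chromosome, strand and position. Members were thus chosen by their counts summed over all libraries and by position, so levels are described without a test, and the comparison of genotypes is tested. Just inside the limit lay rows with 60, 61 and 61 counts, and just outside it rows with 58, 58 and 59 counts.

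The animals were female mice aged 30 weeks on a 129 sv X CD1 background. The wild-type (WT) group held 3 samples and the knockout (KO) group, of genotype Armc5(-/-), held 3 samples, each numbered 1 to 3. Whole adrenal glands were used, and the labels do not say whether a sample is 1 animal or which part of Armc5 was deleted, so each p-value rests on the spread among samples that may be technical repeats. The ARMC5 protein recruits substrates, among them the catalytic core of RNA polymerase II, to a cullin-based ubiquitin ligase. The adrenal gland has a cortex, which makes steroid hormones, around a medulla of chromaffin cells, which release catecholamines.

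Transcripts outside catalogued genes are found in most tissues once reads are assembled into transcripts. Many are long noncoding RNAs, which are often inefficiently spliced, present at low level and restricted to few cell types. A row of such an assembly is a stretch covered by reads, and its ends are estimates. In a whole gland, fewer cells of a type and less RNA per cell cannot be told apart.

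Libraries held 70547288 to 130573434 counts, and the units took 0.132% to 0.157% of them. Levels are given in CPM, counts scaled to the TMM-adjusted library size of named loci. Armc5 lay between 25.3 and 27.8 CPM in WT and between 3.53 and 3.65 CPM in KO, so the libraries follow their labels (edgeR adjusted p = 0.000521). All 12 cortex markers looked for were found and none was called, with sums of 42593 to 71963 CPM in WT and 33057 to 38444 CPM in KO. Cyp11b1 and Cyp11b2 share a merged locus, as do Hsd3b1 and Hsd3b6, so the genes of each pair were not measured separately. The 10 medulla markers summed to 1951 to 2774 CPM in WT and 3983 to 4393 CPM in KO, and 4 of them were called higher. Macrophage markers summed to 172, 930 and 597 CPM in WT 1 to 3 and to 126 to 127 CPM in KO. Hepatocyte markers summed to 3892 CPM in KO 3 and to 111 to 182 CPM elsewhere. Kidney markers stayed between 0.485 and 1.21 CPM, with 3 of 6 at 0 in every library. Where these marker sums move with a result, their part in it was not tested.

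Most units were short and weakly covered. Exon length ran from 201 to 85781 bases with a median of 502.5, and 188 of the 378 units were under 500 bases. Of all units, 301 consisted of unbroken blocks and 77 were spliced; 343 came from a single row, 18 from 2, 13 from 3 and 4 from 4 or more. The summed count had a median of 416.5 and a range of 61 to 125334, and the 10 most counted units held 42.3% of all counts of units. Units stood on the plus strand in 193 cases and on the minus strand in 185. Chromosome 1 carried 37, X carried 30, Y carried 12, chromosome 11 carried 7 and chromosome 19 carried 6. The median distance to the nearest named row was 26817 bases, the smallest 10057 and the largest 487002, and 41 units lay more than 100 kb away. Another 16 units lie on 12 unplaced or unlocalised scaffolds, and 10 of these have no named row on their sequence, so that the distance rule holds there for want of a neighbour.

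**Figure D1:**
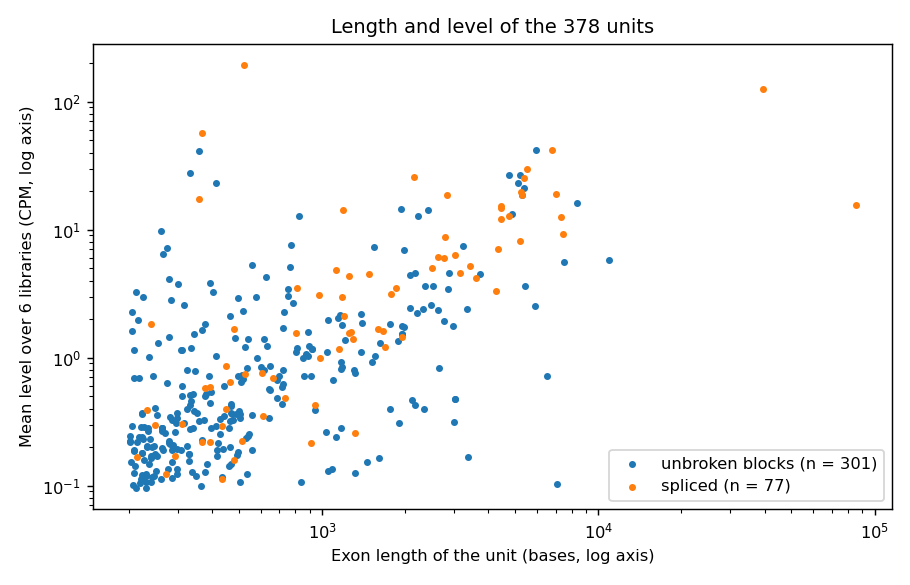
Exon length of each unit in bases against its mean level over the 6 libraries in CPM, both on log axes, for 301 units of unbroken blocks and 77 spliced units. Most points sit under 1 CPM and under 1000 bases, and the point at the top is unit 58, a short spliced unit at 132 to 300 CPM.

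No unit overlapped a gene of GENCODE M21, the annotation on the same build (GRCm38) as the table. RefSeq genes on GRCm38.p6 overlapped 75 units (19.8%) in whole or in part, while 303 units overlapped none. Overlap was counted on either strand because the RefSeq gene table used gives no strand (strands of RefSeq genes named here are those of their start windows). The overlapping genes were long noncoding RNA genes for 45 units, protein-coding genes for 16, pseudogenes for 10 and tRNA genes for 5, with some units overlapping more than 1 kind. For 2 of the 4 units called in the comparison of genotypes, RefSeq gives a gene on the same strand, and the windows from 250 bases before to 50 bases after the start of these genes show what sequence stands there. Capitals mark TATAAA, the core of the TATA box, or its reverse complement TTTATA.

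Gm33293, chr5:67231637-67231936, minus strand: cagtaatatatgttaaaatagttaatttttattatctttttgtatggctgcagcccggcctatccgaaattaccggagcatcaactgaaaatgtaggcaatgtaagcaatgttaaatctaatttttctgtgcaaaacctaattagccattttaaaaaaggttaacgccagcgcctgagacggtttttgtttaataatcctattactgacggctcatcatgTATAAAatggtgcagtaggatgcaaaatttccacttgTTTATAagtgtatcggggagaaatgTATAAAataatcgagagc
LOC102632415, chr13:63575233-63575532, plus strand: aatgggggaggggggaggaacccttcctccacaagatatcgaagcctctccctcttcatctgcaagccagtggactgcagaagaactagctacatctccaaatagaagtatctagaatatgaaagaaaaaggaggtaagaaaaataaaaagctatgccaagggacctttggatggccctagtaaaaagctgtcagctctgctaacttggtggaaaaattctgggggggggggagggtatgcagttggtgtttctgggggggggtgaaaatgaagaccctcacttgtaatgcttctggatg

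The window of Gm33293, the RefSeq gene over unit 106, held 3 copies of the motif: forward from 30 bases before the start, reverse from 7 bases after it and forward from 32 bases after it. Its GC content was 34.7% with 9 CpG pairs. The unit's own 5′ end lies 254 bases upstream of the RefSeq start, so the whole window falls inside the span of the assembled unit. The window of LOC102632415, over unit 219, had a GC content of 47.7%, 1 CpG pair and none of the motifs searched, and the unit begins 20883 bases downstream of that start. TATAAA was present on either strand in 13.6% of 32851 RefSeq windows of this length, CCAAT in 37.4% and the cAMP response element TGACGTCA in 1.79%. The median window had 52.7% GC and 7 CpG pairs. A match is a run of letters and shows no use of a site.

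The comparison of KO with WT asked which units differ when Armc5 is lost. Of the 378, 360 passed the filter on low counts and 18 did not, the largest of which had 982 counts.

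Of the 360 tested units, 4 were called at an adjusted p under 0.05 in edgeR's quasi-likelihood test, all 4 higher in KO and none lower; 69 had an unadjusted p under 0.05, 50 of them higher and 19 lower. Among the 4, units 219 and 251 passed the limit of 60 counts only through KO. The calls are 1.11% of the units. Over all 26236 features tested, 1.87% were called, 1.53% higher and 0.343% lower, and 21.8% had an unadjusted p under 0.05 against 19.2% of the units. The share of called units is therefore no higher than the background. The number of calls depended on the tool and on single libraries, with 37 by DESeq2 (29 higher, 8 lower) and 0 to 5 by edgeR when 1 library was left out, 0 without KO 1 and without KO 2. The only call without WT 3, and the only one without KO 3, was lower in KO. Every KO library stood above every WT library in 60 units (16.7%) and below in 17 (4.72%), beside 17.5% and 12.4% of all features. These shares are not matched for level. Under 1 CPM, 38 of 205 units stood above and 8 below, beside 1101 and 280 of 5936 named loci. At 10 CPM and over, 1042 of 9677 named loci stood above and 2281 below. Other unnamed rows had 23.4% above and 4.66% below.

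The median log2 fold change of KO against WT was 0.19 over the tested units, -0.0079 over named loci and 0.03 over all features, and 206 units (57.2%) had a positive value beside 52.9% of all features. Over the 4682 other unnamed rows the median was larger, at 0.29, and 69.8% were positive, so the upward lean is not particular to the units. The positive median of the units was carried by those of low level. It was 0.39 in 205 units under 1 CPM, -0.10 in 121 units at 1 to 10 CPM and -0.22 in 34 units at 10 CPM and over, and named loci at the same levels had 0.24, 0.11 and -0.10. Among units with 200 counts or more it was -0.0078. Changes of 2-fold or more, in either direction, were fitted for 112 units (31.1%). The share was 17.6% in other unnamed rows, 11.1% in named loci and 12.6% over all features. Few of these changes in units passed the test, and the shares are not matched for level.

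**Figure D2:**
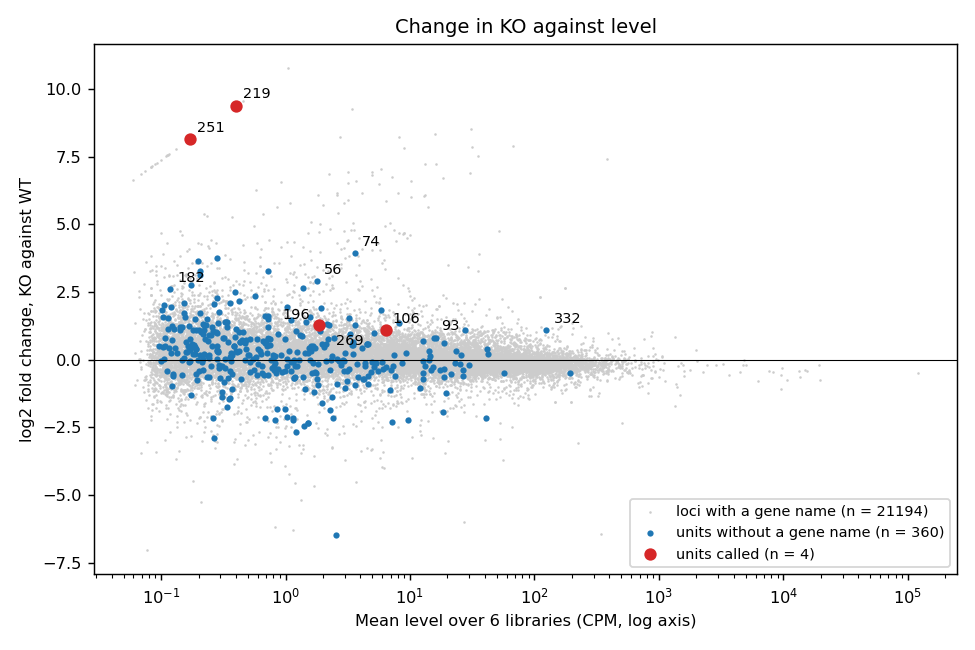
Mean level over 6 libraries in CPM (log axis) against the log2 fold change of KO over WT, for 21194 named loci in grey, 360 units in blue and the 4 called units in red; numbers mark the 10 units with the smallest p. Units 219 and 251 sit at the top because their WT libraries hold no count, so their height depends on the prior count of the fit.

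Of the 4 called units, units 219 and 251 had no count in WT and units 106 and 196 rose by a little over 2-fold. Unit 219 lies on chromosome 13, plus strand, 63596366 to 63597608, as a spliced row of 449 exon bases inside LOC102632415, a RefSeq long noncoding RNA gene. It had 0 counts in each WT library and 66, 65 and 123 counts in KO 1 to 3, which is 0.60, 0.85 and 0.95 CPM. The groups did not overlap. With the 3 WT libraries together set to a floor of 3 counts, the KO level was 83.2-fold that of WT. The 95% counting interval began at 28.2 (exact Clopper-Pearson, counting error only) and treats the 3 assumed WT counts as if observed. The fitted log2 fold change passed the test (edgeR adjusted p = 0.0204). Its nearest named neighbour, the noncoding locus Gm30655, lies 13804 bases upstream on the same strand and was also called higher, from 0.10 to 0.61 CPM on average (log2 fold change 2.57, SE 0.32, edgeR adjusted p = 0.0237). The start of LOC102632415 lies further upstream, 20883 bases from the unit. The near end of Gm30655 thus falls inside the span of that gene. Whether the unit and Gm30655 are 1 transcript was not tested.

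Unit 251 spans 215017 bases of chromosome 14, minus strand, from 113556709 to 113771725, the longest span of all units, but only 293 of these bases are exon. It too had 0 counts in every WT library, against 24, 38 and 40 in KO 1 to 3, or 0.22, 0.50 and 0.31 CPM. By the same floor the KO level was 33.4-fold that of WT (95% counting interval from 11.1), with an edgeR adjusted p of 0.0452. No RefSeq gene covers it, and the named loci on its sides, Gm4487 at 66049 bases and Gm5209 at 130302 bases, had no count in any library. Both units were seen in all 3 KO libraries, where the medulla marker sum was also above, and the cortex sum below, that of every WT library. Foxj1 had 0.07 to 0.30 CPM in WT and 2.42 to 2.91 CPM in KO. The sum of its ovary and oviduct list overlapped between the groups, and the genes of that list did not move together. Zp3 also had every KO library above every WT library, whereas in Ovgp1 every KO library was below every WT library. Amh and Inha overlapped between the groups. The part of these markers was not tested. Units 219 and 251 passed the limit of 60 counts and the filter only through their KO counts. Their folds, intervals and p-values are therefore not independent of how the units were chosen.

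Unit 106 covers 67219621 to 67231940 of chromosome 5 on the minus strand, where RefSeq has the noncoding gene Gm33293 whose start window is printed above. It stood at 4.52, 4.41 and 3.23 CPM in WT and at 9.43, 7.57 and 9.14 CPM in KO. Every KO library was above every WT library, and the mean was 4.05 ± 0.718 CPM in WT and 2.15-fold higher at 8.71 ± 1.00 CPM in KO (± SD of 3 libraries; log2 fold change 1.10, SE 0.19, edgeR adjusted p = 0.0489). Gm42670, its nearest named neighbour 28031 bases upstream on the same strand, did not pass the test (log2 fold change 0.24, SE 0.31, edgeR adjusted p = 0.692).

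Unit 196 is an unbroken block of 1754 bases on chromosome 10, minus strand, 77244463 to 77246216, with no RefSeq gene over it. Its level was 0.93, 1.22 and 1.06 CPM in WT and 2.67, 3.06 and 2.14 CPM in KO, again without overlap. Its mean of 1.07 ± 0.148 CPM in WT became 2.62 ± 0.460 CPM in KO, a rise of 2.45-fold (± SD of 3 libraries; log2 fold change 1.29, SE 0.22, edgeR adjusted p = 0.0495). Col18a1, which encodes the collagen from which endostatin is cut, lies 77915 bases downstream on the same strand at 35.4 to 46.1 CPM in WT and 45.8 to 69.2 CPM in KO and did not pass (log2 fold change 0.52, SE 0.18, edgeR adjusted p = 0.173). These 4 calls are close to the threshold: leaving out 1 library at a time, unit 219 was called in 2 of 6 fits (edgeR adjusted p from 0.0251 to 0.0965) and units 251, 106 and 196 in none (0.0522 to 0.189).

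The next 6 units by p missed the threshold, and all 6 had every KO library above every WT library. A choice by smallest p favours such separation, which 17.5% of all features had. Unit 332, on the plus strand of X from 137356007 to 137465933, is the second most abundant unit. It is made of 2 overlapping rows with 39431 exon bases and stood at 95.2, 57.0 and 86.0 CPM in WT and 183, 156 and 170 CPM in KO (log2 fold change 1.10, SE 0.20, edgeR adjusted p = 0.0526). Its rows gave KO to WT ratios of 2.25 and 1.86. The closest named gene, Il1rapl2, an interleukin-1 receptor accessory protein-like gene expressed in brain, lies 104675 bases downstream on the same strand and had 1.22 to 1.74 CPM in WT and 0 to 0.34 CPM in KO (log2 fold change -2.88, SE 1.02, edgeR adjusted p = 0.178). The unit and that gene thus had fold changes of opposite sign, neither of which passed.

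Unit 93 joins 11 rows, the most of any unit, over 103535 bases of chromosome 4, minus strand, 142371350 to 142474884. RefSeq places the noncoding gene Gm42339, of strand not given, within this span. The noncoding gene Gm46875, on the opposite strand, overlaps only its edge, up to 142371960. The unit had 10.3, 11.9 and 11.8 CPM in WT and 23.4, 20.6 and 16.0 CPM in KO (log2 fold change 0.82, SE 0.16, edgeR adjusted p = 0.0626). All 11 rows had a higher mean in KO, by 1.38 to 2.15 times, and 6 of them had no overlap between the groups. Over the 35 joined units, all rows pointed the same way in 30, and 18 of the 35 have only 2 rows. Rows of a unit lie close together and share the libraries, so they are not repeats and their agreement is no added support.

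Larger differences with wider spread were found in units 74 and 56. Unit 74, an unbroken 5407 bases of chromosome 3 with no RefSeq gene, had 66, 13 and 48 counts in WT and 614, 427 and 1195 in KO (log2 fold change 3.93, SE 0.69, edgeR adjusted p = 0.051). Unit 56, on chromosome 2 opposite to the RefSeq noncoding gene Gm35886, had 27, 48 and 51 counts in WT and 397, 94 and 589 in KO (log2 fold change 2.89, SE 0.57, edgeR adjusted p = 0.0611). In both units the lowest KO library was above the highest WT library by count. Unit 269, opposite to the noncoding gene Gm34032 on chromosome 16, had 1.17 to 1.46 CPM in WT and 2.44 to 3.74 CPM in KO (log2 fold change 1.27, SE 0.23, edgeR adjusted p = 0.0524).

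**Figure D3:**
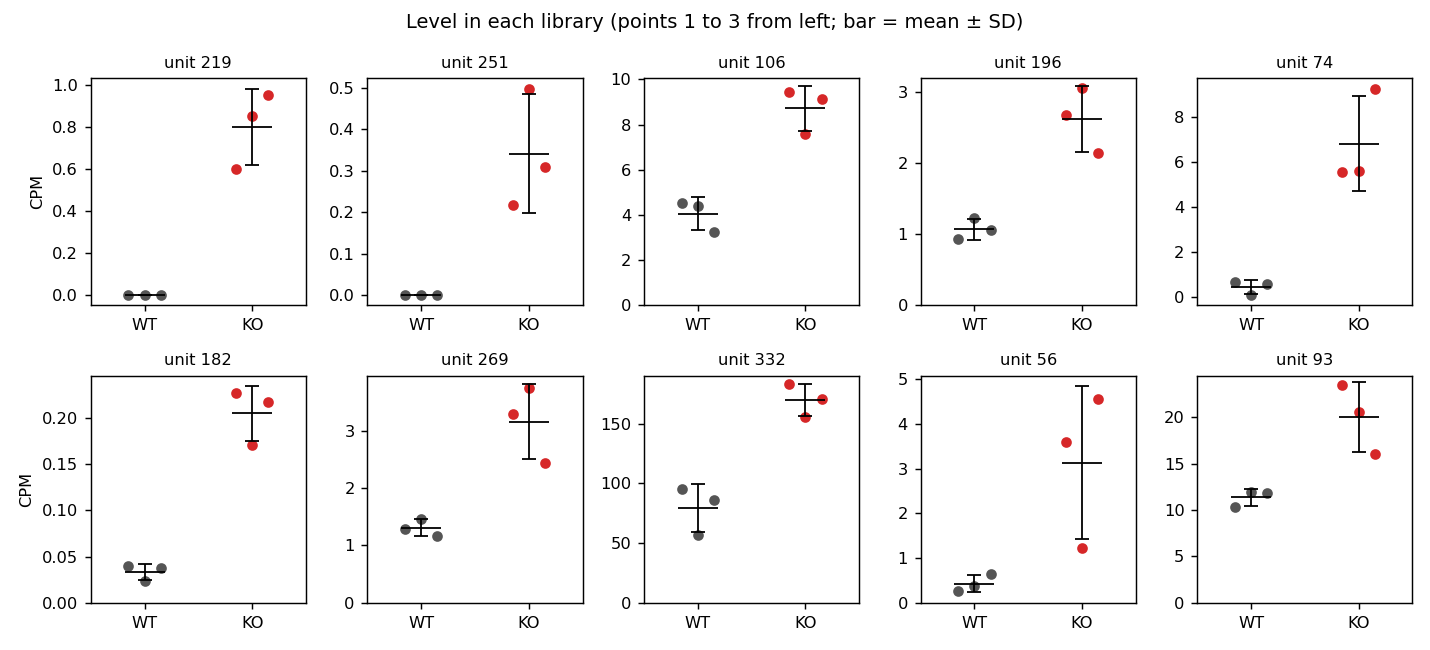
Level in CPM of the 10 units with the smallest p, 1 panel each with its own axis; grey points are WT 1 to 3 and red points KO 1 to 3, and bars give mean ± SD (n = 3). In each panel the lowest KO point is above the highest WT point, which the choice by p favours. Relative to its mean the KO spread is widest in unit 56.

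Unit 182 and 4 others lie over tRNA genes of RefSeq, which RNA polymerase III transcribes. Unit 182, over the glutamate tRNA gene n-TEttc8, had 4, 3 and 3 counts in WT and 25, 13 and 28 in KO (log2 fold change 2.60, SE 0.47, edgeR adjusted p = 0.0524). Unit 28, over the glycine tRNA gene n-TGgcc3, had 9, 6 and 3 against 14, 14 and 26 counts (log2 fold change 1.54, edgeR adjusted p = 0.163). Unit 145, over the proline tRNA gene n-TPtgg8, had 16, 24 and 11 against 19, 43 and 66 counts (log2 fold change 1.35, edgeR adjusted p = 0.197). In CPM every KO library stood above every WT library in units 182 and 28, as in 17.5% of all features. In unit 145 KO 1 was below WT 2. Unit 318 over n-TKctt30 had 22, 6 and 6 against 23, 25 and 26 counts, and unit 217 over n-TAagc17 had 15, 8 and 8 against 15, 4 and 13. The median log2 fold change of the 5 was 1.35, and none was called. Unit 182 had 10 WT and 66 KO counts, so it too passed the limit of 60 only through KO. Unit 28, with 18 WT and 54 KO counts, reached the limit mostly through KO. The median of the 5 thus includes units selected largely through the group in which they are high. These counts are too few for a firm comparison, and units of 222 to 365 bases hold more than the tRNA itself.

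Other groupings of the tested units differed in their medians and were not tested against each other. The 68 units overlapping RefSeq genes had a median log2 fold change of 0.54, with 52 positive and 2 called. The 292 others had a median of 0.10, with 154 positive and 2 called. The 286 units of unbroken blocks had a median of 0.24 and 1 call, and the 74 spliced units -0.05 and 3 calls. By exon length, 175 units under 500 bases had a median of 0.25, 154 units from 500 to 4000 bases 0.15, and 31 units of 4000 bases and over -0.20. The median was 0.012 in the tested units more than 50 kb from named rows. By direction, 76 tested units downstream of their nearest named locus on its strand had a median of 0.21 and the 284 others 0.19. In 116 cases both the unit and its nearest named locus were tested, and in 61 (52.6%) they had fold changes of the same sign. The correlation of these fold changes across the 116 pairs, which share libraries, was 0.11 (Pearson) and -0.06 (Spearman).

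In 9 of the 10 most abundant units, all but unit 332, the WT and KO libraries overlapped. Per kb of exon, the highest level was that of unit 58, a spliced unit of 519 exon bases on chromosome 3, 5825226 to 5860844, at 371 CPM per kb (254 to 578 over libraries). Unit 214 on chromosome 12, also spliced and 366 exon bases long, followed with 156 CPM per kb (96.7 to 203), and these ranges do not overlap. Unit 58 had 183, 300 and 192 CPM in WT and 132, 133 and 216 in KO (log2 fold change -0.49, SE 0.27, edgeR adjusted p = 0.345). Unit 214 had 74.4, 65.6 and 59.7 CPM in WT and 44.8, 35.4 and 61.5 in KO (log2 fold change -0.50, SE 0.21, edgeR adjusted p = 0.235). In both, KO 3 fell among the WT values. Unit 211 overlaps unit 214 on the other strand and averaged 23.9 ± 4.88 CPM over WT and 21.9 ± 2.70 CPM over KO (SD, n = 3 each). In all, 11 such pairs of units on opposite strands exist, and reads of the 2 strands can be told apart only if strand was used in counting, which is not given in the sources used here.

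Several abundant units were long and unbroken or nearly so, and varied within both genotypes. Unit 241 on chromosome 14 (32115304 to 32121262, 5959 exon bases) had 61.7, 20.7 and 35.8 CPM in WT and 14.2, 102 and 18.8 CPM in KO. Unit 135 on chromosome 6 (95036937 to 95043755, 6781 exon bases) had 81.3, 21.5 and 5.10 CPM in WT and 27.1, 61.7 and 53.9 CPM in KO. Each genotype held both high and low libraries of these units, and the highest was KO 2 for one and WT 1 for the other. Unit 290 on chromosome 17 ranged from 9.61 to 54.2 CPM in WT and from 23.6 to 32.2 CPM in KO, and unit 177 on chromosome 9 from 25.8 to 32.3 CPM in WT and from 10.8 to 39.6 CPM in KO. None of these 4 passed the test (edgeR adjusted p from 0.659 to 0.918).

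This spread was general. The ratio of the highest to the lowest of 3 libraries of the same genotype had a median of 2.03 in WT and 1.82 in KO over the tested units, against 1.41 and 1.30 over named loci (CPM with 0.05 added). It reached 4 or more in 85 units (23.6%) among WT and 56 (15.6%) among KO, and in 4.64% and 3.65% of named loci. At 10 CPM and over, where counting error is small, 11 of 34 units (32.4%) in WT and 5 (14.7%) in KO reached it, against 1.63% and 1.19% of 9677 named loci. Unnamed rows outside the units had 8.77% and 2.92% at that level, between the units and the named loci. These shares describe the features and have no test.

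**Figure D4:**
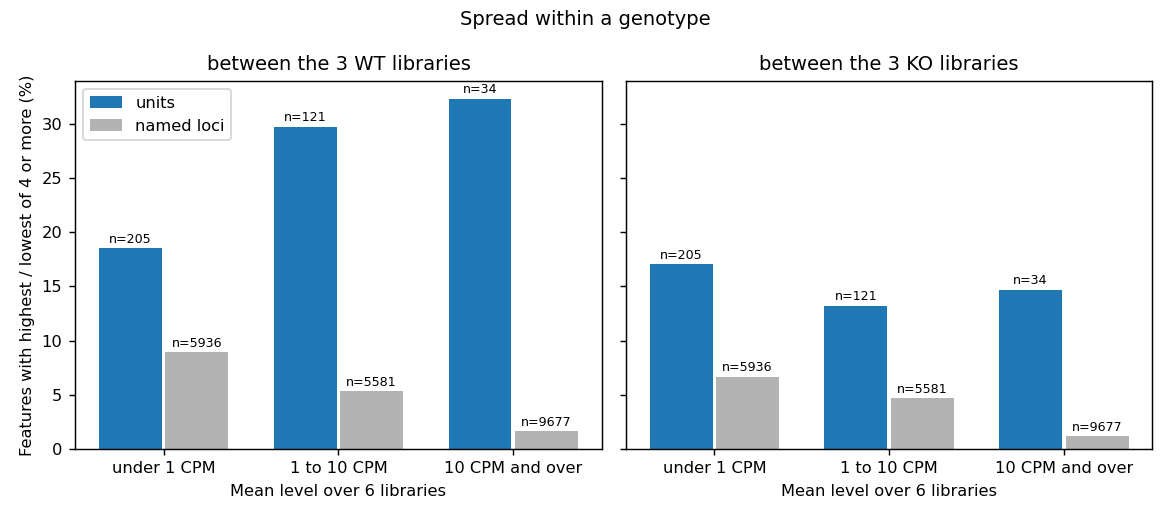
Percentage of features whose highest library of a genotype is 4 or more times its lowest (CPM with 0.05 added), by mean level, for units in blue and named loci in grey, with WT on the left and KO on the right; n gives the features in each bar. The units exceed the named loci at every level, and the gap is widest at 10 CPM and over.

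Some units were carried by single libraries. In 38 of 378 units (10.1%) 1 library held 50% or more of the summed CPM, against 3.04% of 21363 named loci with 60 or more counts. WT 2 was that library in 18, KO 2 in 7, WT 1 in 5, WT 3 in 4, KO 1 in 3 and KO 3 in 1. Among named loci it was most often KO 3, the library with the high hepatocyte markers, in 1.92%, and WT 2 in 0.59%. A count of 0 in 1 or more libraries with 30 or more in another was found in 46 units (12.2%) and in 3.37% of those named loci. Unit 205 on chromosome 11 (92739833 to 92740772) had 239 counts in WT 1 and 0 in the other 5 libraries, and unit 43 on chromosome 2 (78318923 to 78331525) had 3, 1587 and 216 counts in WT and 11, 0 and 7 in KO. Unit 43 did not pass the test despite its size (log2 fold change -6.49, SE 1.96, edgeR adjusted p = 0.138). The following 3 units were chosen after their values were seen, as cases in which presence crosses the genotypes. Unit 121 had 178 counts in WT 2, 115 in KO 2 and 0 elsewhere; unit 218 had 263, 251 and 207 in WT and 0, 0 and 163 in KO; and unit 118 had 6, 0 and 0 in WT and 89, 73 and 0 in KO. Each of these was present in both genotypes and at 0 in at least 1 library.

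**Figure D5:**
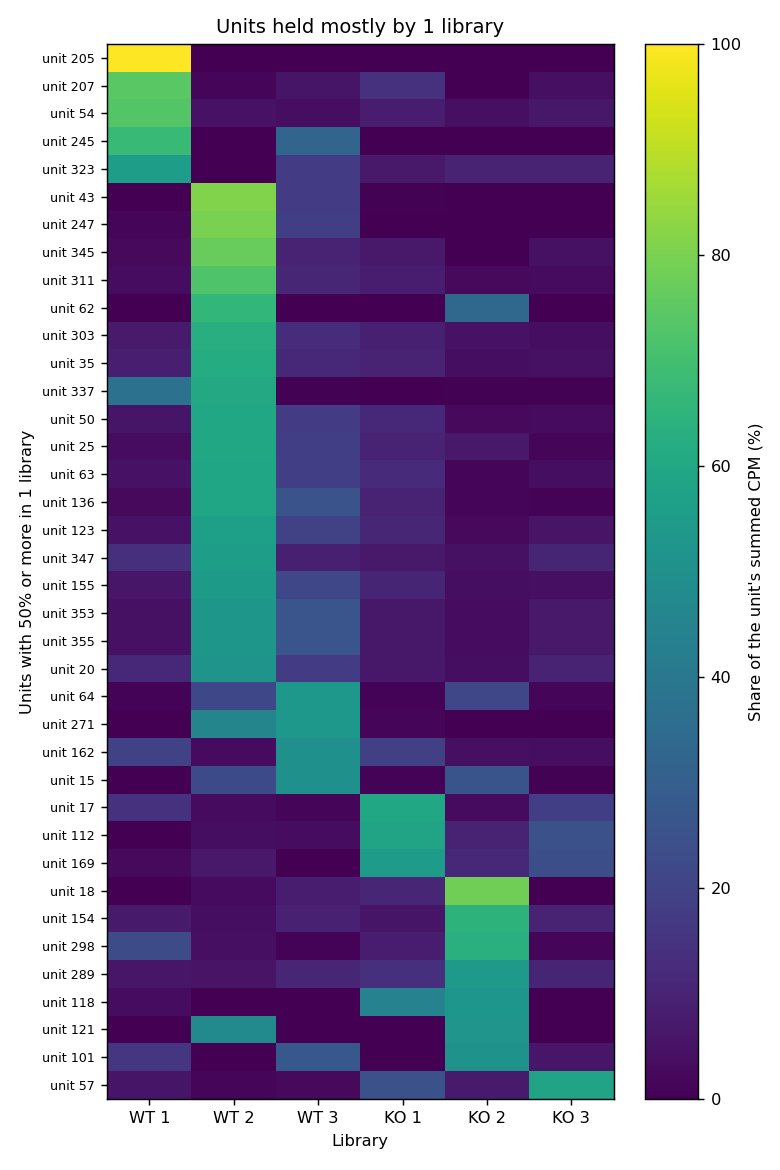
Share of the summed CPM of each of 38 units (rows) that fell in each library (columns), in percent by colour, for units with 50% or more in 1 library. The block in the WT 2 column holds 18 units, many with a weaker share in WT 3.

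Of the 18 units led by WT 2, 14 had under 600 exon bases, and in 11 WT 3 came next and KO 1 after it. The most abundant was unit 155, a block of 358 bases on chromosome 8 (15519774 to 15520131) with 14.6, 134 and 52.7 CPM in WT and 25.3, 9.09 and 10.4 CPM in KO (log2 fold change -2.17, SE 0.82, edgeR adjusted p = 0.200). A named locus picked after its values were seen, Gm24270, which GENCODE types as a microRNA, had 6.86, 47.8 and 17.3 CPM in WT and 10.7, 3.96 and 4.36 CPM in KO, with the same order of its 3 highest libraries. The macrophage marker sum was also highest in WT 2 and next in WT 3. Lyz2 (86.8, 670 and 453 CPM in WT 1 to 3) and Cd68 (16.1, 169 and 79.4 CPM) carried it, whereas Mrc1 had 31.6, 27.9 and 26.5 CPM, Adgre1 11.1, 14.0 and 11.1 CPM and Csf1r 26.0, 49.7 and 27.8 CPM. Gpnmb, also looked at after its values were seen, encodes a glycoprotein of lipid-laden macrophages and had 1.02, 1417 and 599 CPM in WT and 12.3, 1.78 and 9.0 CPM in KO. The part of macrophages in these units was not tested.

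All 12 units on the Y chromosome were found in samples labelled female, with 34155 counts together. The 1568 named rows of Y held 55237 counts, 46120 of them in the merged locus Gm47283/Gm21742. The most abundant was unit 361 (59662451 to 59667667) with 40.5, 13.4 and 43.4 CPM in WT and 38.4, 9.59 and 15.2 CPM in KO. Units 353 and 355, of 1947 bases each, had identical counts of 42, 626, 193, 64, 23 and 81 in WT 1 to 3 and KO 1 to 3, and units 359 and 362, of 919 bases each, had 121, 127, 172, 90, 95 and 83. Each pair carries the same measurement and adds nothing to the other, and how reads that match several places were counted is not given in the sources used here. Unit 351 had 539, 3 and 1 counts in WT and 577, 2 and 516 in KO, so 3 libraries from both genotypes carried it. On X, units 330 and 346, of 4452 exon bases each on opposite strands, ranged together from 5.05 and 4.85 CPM in WT 2 to 12.1 CPM and above in the other 5 libraries for the first and 11.9 CPM and above for the second. None of the Y units was called, 2 of 12 had an unadjusted edgeR p under 0.05, both lower in KO, and these were the identical units 353 and 355.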

How the data were processed

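The authors deposited whole-number read counts per assembled locus for 3 WT and 3 KO libraries, raw per the file headers. Per the labels' protocols, rRNA was removed from 250 ng of total RNA and strand-keeping libraries were read from both ends at 100 bases. Reads went through Trimmomatic, STAR, Picard and StringTie on GRCm38, with edgeR also named, per the submitters' processing notes. What versions were used, which program counted reads and whether it read strand is not given in the sources used here. Log2 values and lengths that the authors also deposited entered no test, and lengths served only for levels per kb.

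Counts were summed over the rows of a unit. Library sizes and TMM factors came from loci with a gene name, since unnamed rows made up 1.39% to 2.04% of each library. All 26236 features that passed filterByExpr by group (21194 named loci, 360 units and 4682 other unnamed rows) were fitted together in edgeR 4.0.16 (robust glmQLFit, two-sided glmQLFTest, R 4.3.3), adjusted by Benjamini-Hochberg and called under 0.05. The standard error (SE) is the log2 fold change divided by the square root of F. Alternatives used limma 3.58.1 and DESeq2 1.42.0 and other scalings, filters, joins and libraries. The units and lists were chosen with earlier results of these data known. Units named are the called ones and the next by p up to 10, the 10 most abundant, those of most rows, those of longest span and those with 80% of CPM in 1 library; others are said to be chosen by their values. Sequence at the units' own 5′ ends was not analysed here, and windows at RefSeq starts (GRCm38.p6) were used instead. Deviations of same-numbered samples were little correlated, which does not decide whether the numbers pair samples.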

Additional observations from a re-analysis of the deposited data

How the results depend on the processing

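The count of called units moved with most choices. It was 4 in the fit reported and 3 with RLE size factors, 4 with no filter and with joins within 5 kb, 6 with at least 30 counts in 3 libraries, 5 with rows not joined and 3 among units of 200 counts or more. It was 13 with library totals alone and 13 with equal Rn7sk counts, where the median of named loci itself was 0.22 and 0.19, and 2 with scaling over all rows. DESeq2 called 37 (29 higher, 8 lower) and limma-voom with quality weights 10 (9 higher, 1 lower). It was 1 with glmTreat against a fold of 1.2, 1 more than 50 kb from named rows, and 2 with the other unnamed rows left out, an alternative chosen after seeing the data. Leaving out 1 library at a time gave 0 to 5 calls, with 3, 5, 1, 0, 0 and 1 without WT 1, WT 2, WT 3, KO 1, KO 2 and KO 3 (of which 1, 2, 1, 0, 0 and 1 lower in KO), and without WT 1 and KO 3 together it was 0; of these calls 1 was shared with the 4 reported without WT 1, 1 without WT 2 and 0 otherwise. Taking the replicate number as a block gave 0 calls. Deviations of same-numbered samples correlated at -0.10, -0.0018 and -0.13 over all features. These deviations were taken from the mean of each genotype's 3 libraries, so the values cannot decide whether the numbers pair samples. The cause of the differences in calls was not tested, beyond fewer samples or features where the alternative removes them.

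The median log2 fold change of the tested units, 0.19, was 0.41 with library totals alone and 0.40 with equal Rn7sk counts (0.19 and 0.21 above the median of named loci, against 0.20 in the fit reported), but 0.00022 with at least 30 counts in 3 libraries, 0.012 more than 50 kb from named rows and -0.0078, of the opposite sign, at 200 counts or more. Without 1 library it ran from 0.068 to 0.26. The log2 fold changes of the 10 units with the smallest p were positive in every alternative in which they were tested. These units were picked by p from the same libraries, so a constant sign is no added support. For unit 93 the edgeR adjusted p rose to 0.207 without KO 1. Low counts limit most units, with a median of 416.5 counts over 6 libraries.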

Other observations

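After unit 93, units 22, 49 and 378 had the most joined rows, 4 each, and none passed the test. Unit 22 on chromosome 1 had 1.27, 0.697 and 1.83 CPM in WT and 0.76, 1.40 and 0.687 CPM in KO (edgeR adjusted p = 0.623). Unit 49 on chromosome 2 had 0.681, 0.921 and 0.959 CPM in WT and 0.489, 1.18 and 0.664 CPM in KO (edgeR adjusted p = 0.861). Unit 378, on an unplaced scaffold, had 20.6, 10.4 and 13.0 CPM in WT and 25.1, 15.1 and 27.6 CPM in KO, and all 4 of its rows had a higher mean in KO, by 1.52 to 1.61 times (log2 fold change 0.62, SE 0.32, edgeR adjusted p = 0.313). The widest spans after unit 251 were those of unit 147 on chromosome 7, with 152970 bases, and unit 151 on the same chromosome, with 143424 bases over the RefSeq pseudogenes Gm51512 and Gm9362. Unit 147 had 11, 11 and 1 counts in WT and 16, 13 and 20 in KO, and unit 151 had 111, 66 and 6 in WT and 62, 62 and 55 in KO. Neither passed the test (edgeR adjusted p = 0.368 and 0.965). Unit 27, a block of 331 bases opposite to Smarcal1 on chromosome 1 and abundant enough to be among the first 10, had 65.9 CPM in KO 3 and 12.5 to 34.7 CPM elsewhere.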
